A study of Mus musculus with 48 samples.

Results

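Drd1, Drd2, Adora2a, Gpr6, Ppp1r1b, Rgs9, Penk, Tac1 and Pdyn are 9 genes that mark the medium spiny neurons of the striatum. They were taken by symbol from a table of read counts for 54838 genes, and all 9 were found there. They were followed here through dissections of other brain regions. The dissections were hippocampus and prefrontal cortex of male mice, either wild type (WT) or knockout (KO, Aag-/-) for alkyladenine DNA glycosylase, the repair enzyme encoded by Mpg. Ages were postnatal day 5 (P5), 6 weeks (6W) and adulthood between 4 and 6 months (6M), and each of the 12 groups of tissue, genotype and age held 4 libraries. No striatal sample was among them. The strain, the deleted part of Mpg and whether the tissues came from the same animals are not given in the sources used here.

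Medium spiny neurons are the GABA-releasing projection neurons of the striatum and make up most of its cells. Those of the direct pathway carry the dopamine receptor Drd1 and the peptide precursors Tac1 (substance P) and Pdyn (dynorphin). Those of the indirect pathway carry the dopamine receptor Drd2, the adenosine receptor Adora2a, the orphan receptor Gpr6 and the precursor Penk (enkephalin). Ppp1r1b (DARPP-32, a phosphatase inhibitor downstream of dopamine) and Rgs9 (which shortens G protein signalling) are found in both kinds of neuron. The striatum lies under the frontal cortex, and several of these genes are also used by some cortical and hippocampal neurons, so their RNA in cortex is not by itself striatal.

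All 48 libraries were sequenced to between 21615824 and 47343993 counts, with 6.33 to 31.6% of counts from mitochondrial genes. Levels are given as CPM, the count scaled to library size after TMM normalization. Mpg lay between 0.944 and 2.53 CPM in the 24 KO libraries and between 4.46 and 8.93 CPM in the 24 WT libraries, without overlap. Genes of the hippocampal fields (6 genes, among them Prox1) summed to 637.4 to 1534 CPM in hippocampus and 139.7 to 334.2 CPM in prefrontal cortex. Genes of the neocortical layers (6 genes, among them Cux2) summed to 123.2 to 179.8 CPM in hippocampus and 243.4 to 501.5 CPM in prefrontal cortex, so each tissue label matched its markers. Replicates are separate samples by their labels, and p-values measure the spread between these samples.

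All 9 genes are protein coding. In GENCODE M21 on GRCm38, Drd1 (ENSMUSG00000021478) lies on chromosome 13 from 54051183 to 54055705, Drd2 (ENSMUSG00000032259) on chromosome 9 from 49340627 to 49408177, Adora2a (ENSMUSG00000020178) on chromosome 10 from 75316877 to 75334784 and Gpr6 (ENSMUSG00000046922) on chromosome 10 from 41069977 to 41072285. Ppp1r1b (ENSMUSG00000061718) lies on chromosome 11 from 98348404 to 98357796 and Rgs9 (ENSMUSG00000020599) on the same chromosome from 109225355 to 109298129. Penk (ENSMUSG00000045573) lies on chromosome 4 from 4133531 to 4138819, Tac1 (ENSMUSG00000061762) on chromosome 6 from 7554879 to 7565834 and Pdyn (ENSMUSG00000027400) on chromosome 2 from 129686565 to 129699844. Exons of an antisense gene overlap those of Penk by 233 bases and those of Ppp1r1b by 460 bases. These antisense genes had at most 13 and 6 counts in any library, but whether counting used the strand is not given in the sources used here.

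The cyclic AMP response element is a promoter motif through which dopamine and adenosine receptors reach their target genes, and it was looked for because the 9 genes moved together between prefrontal libraries. Its core TGACG, or CGTCA on the other strand, was searched in the 250 bases before each RefSeq start (GRCm38.p6). Starts were listed for Drd1, Drd2, Rgs9, Tac1, Pdyn and Gpr6 and not for Adora2a, Ppp1r1b and Penk. Tac1 held 2 matches, starting at -197 and -43 from the RefSeq start, and Gpr6 held 2 that overlap in the full site TGACGTCA at -78. No match was found in the windows of Drd1, Drd2, Rgs9 and Pdyn. The core was present in 17.86% of the 27025 gene promoters of the same length, and the full site in 1.624%. A match describes these letters and is not evidence of binding. The stretches of the genes with matches are shown beside that of Drd2, the gene with the largest swings in prefrontal cortex, with matches in capitals. Each is printed on its gene's strand, from chr6:7554811-7554878 (plus strand, the bases before the GENCODE start, with the match at -197), chr10:41072291-41072540 (minus strand) and chr9:49340153-49340402 (plus strand).
Tac1: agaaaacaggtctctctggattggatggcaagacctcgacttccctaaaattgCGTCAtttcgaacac
Gpr6: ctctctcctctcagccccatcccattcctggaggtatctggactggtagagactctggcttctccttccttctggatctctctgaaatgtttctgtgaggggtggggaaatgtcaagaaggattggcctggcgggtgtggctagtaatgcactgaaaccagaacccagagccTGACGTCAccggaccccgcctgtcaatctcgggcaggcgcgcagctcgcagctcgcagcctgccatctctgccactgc
Drd2: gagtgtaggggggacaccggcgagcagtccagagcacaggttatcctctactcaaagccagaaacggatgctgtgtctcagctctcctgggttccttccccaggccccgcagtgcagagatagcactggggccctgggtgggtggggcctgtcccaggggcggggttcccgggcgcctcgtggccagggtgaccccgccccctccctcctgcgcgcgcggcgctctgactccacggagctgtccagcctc

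In prefrontal cortex the 9 genes rose and fell together from library to library within a group. Summed over the 9 genes, the level in prefrontal cortex ran from 66.8 to 949.6 CPM, while all 24 hippocampal libraries lay between 57.95 and 94.6 CPM. Each prefrontal group had a library in which at least 8 of the 9 genes were at their highest. In hippocampus no library held the highest value of more than 6 genes.

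**Figure D1:**
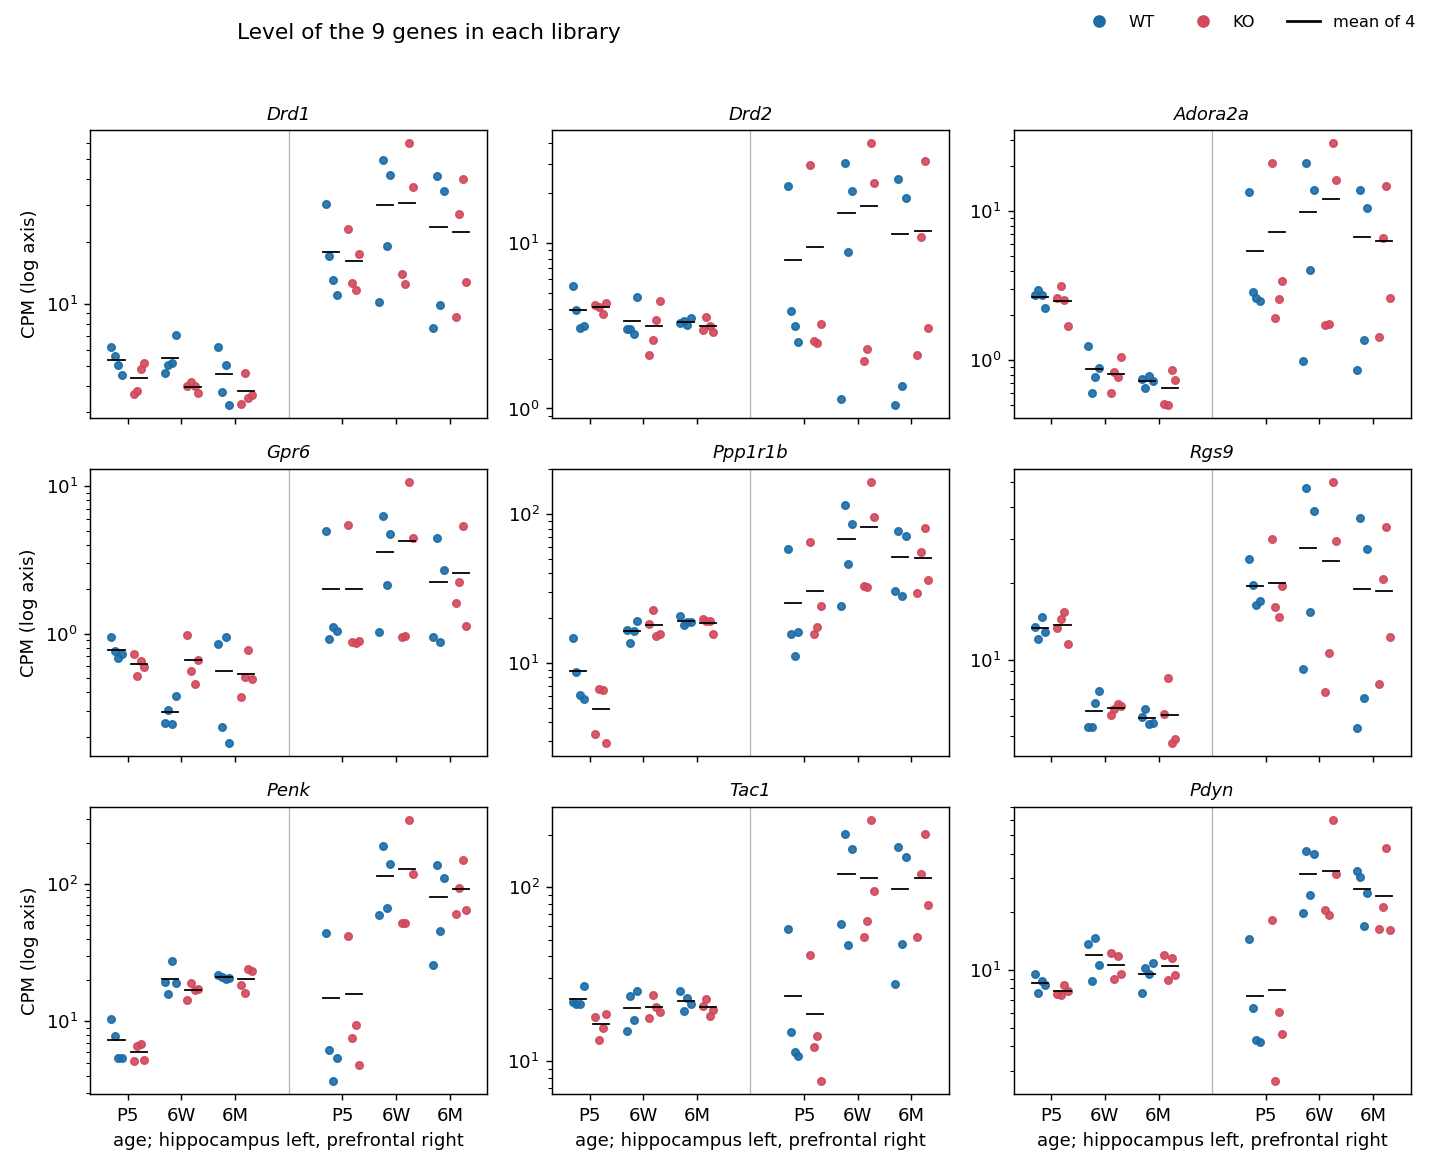
CPM (log axis) of each of the 9 genes in all 48 libraries, by tissue, age and genotype (WT blue, KO red, 4 libraries a group, black line the group mean). For Drd2 the prefrontal libraries reach 39.7 CPM, while the hippocampal libraries lie between 2.09 and 5.51 CPM.

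Drd2, the inhibitory dopamine receptor of the indirect pathway, was at 22.05, 3.86, 3.15 and 2.52 CPM in WT replicates 1 to 4 at P5, and at 29.4, 2.55, 2.48 and 3.24 CPM in the KO. Replicate 1 stood far above the other 3 libraries in each genotype at P5. At 6W it was at 1.14, 30.4, 8.80 and 20.5 CPM in WT and at 1.92, 2.27, 39.65 and 22.9 CPM in KO, so that WT replicates 2 and 4 and KO replicates 3 and 4 were high. At 6M the WT libraries had 1.05, 24.3, 1.37 and 18.7 CPM and the KO libraries 2.09, 10.8, 31.1 and 3.06 CPM. The lowest prefrontal libraries of Drd2 lay below all hippocampal libraries of any age (2.09 to 5.51 CPM), and the highest lay far above them. WT and KO prefrontal libraries overlapped at every age.

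Drd1, the stimulatory dopamine receptor of the direct pathway, followed the same libraries with a higher base. It was at 30.4, 17.1, 13.1 and 11.05 CPM in WT at P5 and at 22.9, 12.6, 11.7 and 17.5 CPM in KO. At 6W, WT libraries had 10.2, 49.35, 19.0 and 41.8 CPM and KO libraries 13.9, 12.5, 59.6 and 36.7 CPM. At 6M, WT libraries had 7.60, 41.4, 9.89 and 35.3 CPM and KO libraries 8.62, 27.2, 40.0 and 12.7 CPM. All 24 prefrontal libraries of Drd1 lay above all 24 hippocampal libraries (3.26 to 7.10 CPM), also those in which Drd2 was low.

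Adora2a, the adenosine receptor that opposes Drd2 in the same neurons, was highest in the same library as Drd2 in each prefrontal group. At 6W it was at 0.986, 20.9, 4.03 and 13.9 CPM in WT and at 1.73, 1.75, 28.5 and 16.2 CPM in KO. At P5 its replicate 1 libraries had 13.5 CPM in WT and 21.0 CPM in KO, against 1.92 to 3.38 CPM in the other 6. Gpr6, a receptor active without a known ligand, was the lowest of the 9 genes in reads. It had 5.00 and 5.43 CPM in the replicate 1 libraries of WT and KO at P5 and between 0.857 and 1.11 CPM in the other 6. At 6W Gpr6 reached 10.7 CPM in KO replicate 3 against 0.942 CPM in KO replicate 1.

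Ppp1r1b, which both kinds of spiny neuron use, was at 58.6, 15.65, 11.2 and 16.1 CPM in WT at P5 and at 65.2, 15.8, 17.6 and 24.3 CPM in KO. At 6W its WT libraries had 24.1, 114.9, 46.4 and 86.0 CPM and its KO libraries 33.05, 32.3, 165.0 and 96.3 CPM. The same libraries were high as for the receptors. Rgs9 varied less at P5, from 14.7 to 29.9 CPM over the 8 libraries, and ran from 7.46 to 50.3 CPM at 6W and from 5.38 to 36.05 CPM at 6M.

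Per exonic length, the peptide precursors Penk and Tac1 had the highest median levels of the 9 at 6W, and the precursor Pdyn lay below Ppp1r1b. Penk was at 44.1, 6.14, 3.67 and 5.42 CPM in WT at P5 and at 41.9, 7.50, 9.40 and 4.84 CPM in KO. At 6W its WT libraries had 59.3, 189.0, 67.4 and 140.9 CPM and its KO libraries 52.2, 51.8, 293.2 and 118.1 CPM. The libraries with low receptor levels at 6W thus still had Penk above every hippocampal library of that age (14.3 to 27.4 CPM). Tac1 was at 57.7, 14.8, 11.3 and 10.75 CPM in WT at P5 and at 40.6, 12.01, 14.0 and 7.68 CPM in KO. At 6W its WT libraries had 61.1, 201.9, 46.6 and 164.8 CPM and its KO libraries 51.8, 64.1, 242.7 and 94.5 CPM. Pdyn followed the others least: it ran from 2.64 to 18.1 CPM at P5, from 19.3 to 59.9 CPM at 6W and from 16.0 to 42.7 CPM at 6M. Pdyn was also the only gene whose highest library in WT at 6M was replicate 1 (32.7 CPM) rather than replicate 2 (30.4 CPM).

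Counted over the genes, the highest library of a prefrontal group was the same for all 9 genes in 5 of 6 groups. It was replicate 1 in WT and KO at P5, replicate 2 in WT at 6W and replicate 3 in KO at 6W and at 6M, and in WT at 6M replicate 2 held the highest value of 8 of the 9. Of all genes tested, between 22.95 and 40.1% were at their highest in those libraries. The summed level of the 9 genes in WT was 270.7, 87.3, 66.8 and 70.7 CPM at P5, 186.6, 701.5, 234.2 and 551.2 CPM at 6W, and 132.4, 533.1, 158.5 and 450.5 CPM at 6M. In KO it was 274.4, 72.1, 79.3 and 86.0 CPM at P5, 183.4, 195.5, 949.6 and 449.8 CPM at 6W, and 180.2, 358.8, 599.4 and 228.0 CPM at 6M. The highest library of a group exceeded the lowest by 3.33 to 5.18 times in prefrontal cortex. In bulk tissue, fewer cells of a type and less RNA per cell cannot be told apart, so a summed level is not a share of cells.

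**Figure D2:**
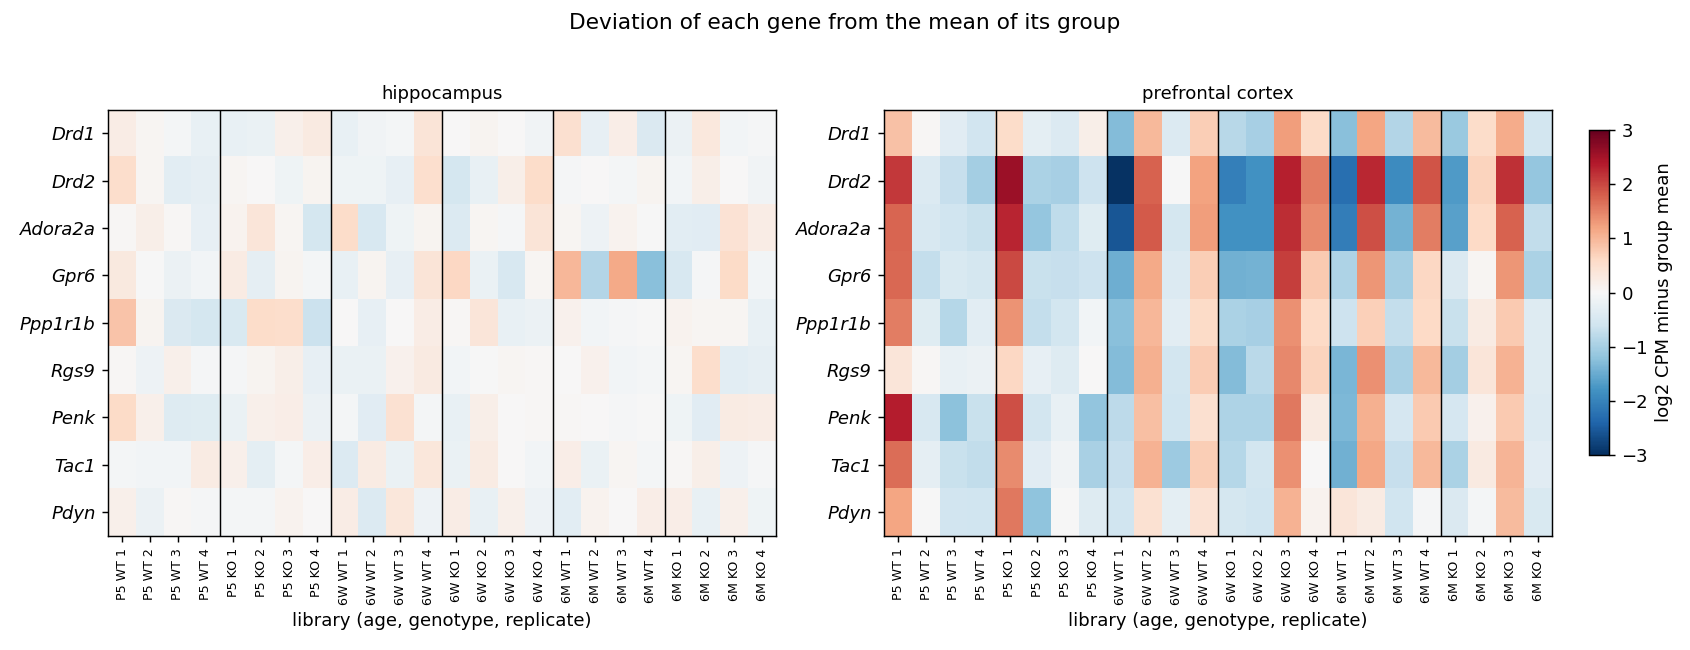
Deviation of log2 CPM from the mean of the 4 libraries of a group (colour, red higher), for the 9 genes in each library of hippocampus and prefrontal cortex. Whole columns are red or blue in prefrontal cortex, as in KO 6W replicate 3, and columns in hippocampus are mixed.

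The spread between libraries of a group, as the SD of log2 CPM, was 1.06 at the median of the 9 genes in prefrontal cortex, against 0.24 at the median of all tested genes. It was largest for Drd2 (1.97) and Adora2a (1.75) and smallest for Pdyn (0.76). These SDs exceeded those of 92.68% (Pdyn) to 99.91% (Drd2) of all tested genes. In hippocampus the median was 0.28 for the 9 genes and 0.21 for all genes, and the highest was that of Gpr6 (0.54), the gene with the fewest reads. The SD was larger in prefrontal cortex for 9 of 9 genes and for 59.66% of the 17282 genes tested in both tissues.

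**Figure D3:**
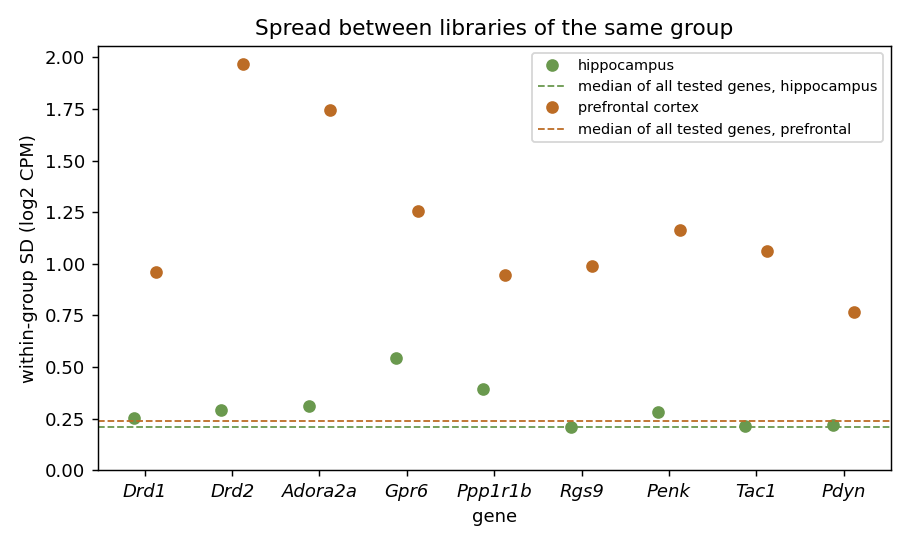
Within-group SD of log2 CPM for each of the 9 genes in hippocampus (green) and prefrontal cortex (brown), with the median of all tested genes as dashed lines. All prefrontal points are at or above 0.76, and the hippocampal points are at or below 0.54.

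Across the 24 prefrontal libraries, each gene's deviation from its group mean was compared with the mean deviation of the other 8. Pearson's r lay between 0.80 (Pdyn) and 0.98 (Adora2a). In hippocampus r lay between -0.25 (Pdyn) and 0.53 (Drd1). These values describe libraries that share 1 scaling factor per library over all genes.

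The genes outside the 9 whose prefrontal deviations were most like theirs were ranked among 11431 genes over the same 24 libraries. Among the 10 highest were Gng7 (r = 0.96), Foxp2 (0.95), Pde1b (0.95), Adcy5 (0.95), Pde10a (0.94), Rasd2 (0.93), Asic4 (0.93), Sv2c (0.92) and Sox1ot (0.91). Gng7 and Adcy5 form the G protein and adenylyl cyclase that act after Drd1 and Adora2a, and Pde1b and Pde10a break down cyclic nucleotides. Gng7, Pde1b, Adcy5, Pde10a and Rasd2 were also in the list of other striatal genes. In hippocampus the 5 most alike, of 11478 genes, were Tns1 (r = 0.70), Ngef (0.69), Elmo1 (0.69), Pim3 (0.67) and Fkbp15 (0.67).

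Of 25 other genes of striatal projection neurons, 24 were matched in the table (Gpr52 was not). In the 6 prefrontal libraries that held the summed maximum of the 9 genes, 21, 18, 19, 20, 15 and 19 of the 24 were at their highest (WT and KO at P5, at 6W and at 6M). Their summed level ran from 1296 to 2486 CPM in prefrontal cortex, and from 969.7 to 1347 CPM in hippocampus.

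Markers of other cells were followed in the same libraries. Genes of striatal and basal forebrain cholinergic neurons (Chat, Slc18a3, Slc5a7, Lhx8 and Gbx2) summed to between 1.17 and 36.7 CPM in prefrontal cortex and to at most 3.76 CPM in hippocampus. In 5 of 6 prefrontal groups their highest library was that of the 9 genes, and in WT at 6M it was replicate 4 (12.2 CPM) rather than replicate 2 (11.2 CPM). At P5 the cholinergic sum was 21.7 CPM in WT replicate 1 and 9.45 CPM in KO replicate 1, against 1.17 to 1.95 CPM in the other 6, of which 3 had no count of Lhx8 and 4 no count of Chat. Genes of GABA neurons (Gad1, Gad2, Sst, Pvalb, Vip, Npy and Lhx6, of which spiny neurons use the Gad genes) were highest in the library of the 9 genes in 6 of 6 groups, with a highest library 1.25 to 1.68 times the lowest.

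Genes of glutamatergic neurons (6 genes, among them Slc17a7, Neurod6, Tbr1 and Camk2a) were lowest in the library highest for the 9 genes in 4 of 6 prefrontal groups and highest there in none. At P5 they summed to 1392 CPM in WT replicate 1 against 1830 to 2307 CPM in the other WT libraries, and to 1575 CPM in KO replicate 1 against 1900 to 2199 CPM. Olfactory bulb genes varied between 8.58 and 61.6 CPM, and their highest library was that of the 9 genes in 1 of 6 groups. The same count was 1 for dopamine neuron genes, 2 each for thalamus, septum and oligodendrocyte genes, 3 for choroid plexus genes, 4 for genes of hippocampal fields and 0 for genes of neocortical layers. Foxp2 is in the list of neocortical layers, but its own deviations went with those of the 9 genes (r = 0.95). The part of tissue composition in the level of the 9 genes was not tested further.

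**Figure D4:**
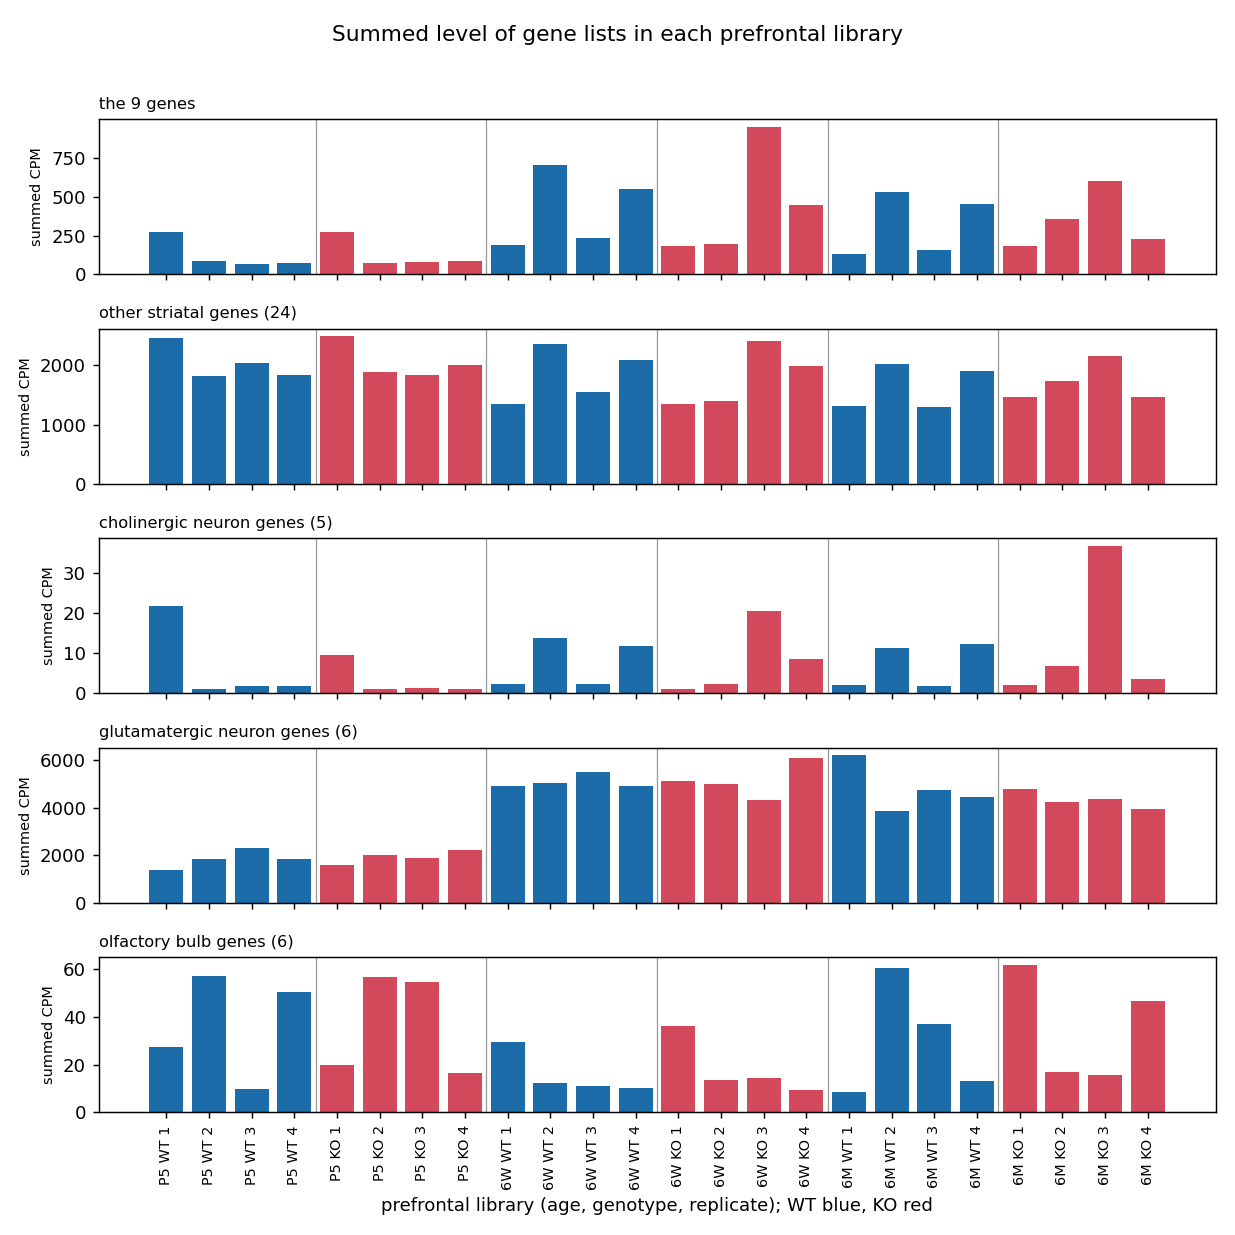
Summed CPM (bars from 0) in each of the 24 prefrontal libraries for the 9 genes, 24 other striatal genes, 5 cholinergic, 6 glutamatergic and 6 olfactory bulb genes (WT blue, KO red). The striatal and cholinergic bars are high in the same libraries, for example 949.6 and 20.4 CPM in KO 6W replicate 3. The highest olfactory bar is in the library highest for the 9 genes in 1 of 6 groups.

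The make-up of the 9 genes also differed between libraries. Compared per exonic length (RPKM, the CPM of a gene divided by its length), the ratio of Drd2 to Drd1 was 1.03 in WT and 1.83 in KO replicate 1 at P5, and 0.26 to 0.34 in the other 6 prefrontal libraries. In WT at 6M it was 0.20, 0.84, 0.20 and 0.75 in replicates 1 to 4, and so was high where the summed level was high. In hippocampus the ratio lay between 0.75 and 1.71 over the older ages and between 0.86 and 1.63 at P5. The ratio of Tac1 to Drd1 in prefrontal cortex lay between 0.47 and 2.02 at P5 and between 2.62 and 6.41 at 6W, without overlap. That of Penk to Drd2 lay between 1.82 and 5.92 at P5 and between 8.02 and 81.2 at 6W.

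By median RPKM over the 8 prefrontal libraries at 6W the order was Penk (56.8), Tac1 (23.3), Ppp1r1b (22.6), Pdyn (9.66), Drd1 (7.67), Drd2 (5.76), Rgs9 (3.50), Adora2a (2.92) and Gpr6 (1.84). The ranges of all neighbours in this order overlapped. At P5 the highest median was that of Ppp1r1b (5.75), followed by Penk (4.18), Drd1 (4.16) and Tac1 (3.82), also with overlapping ranges.

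Whether the prefrontal dissection held more of these RNAs than hippocampus was asked at each age, over the genotypes. At P5, 4 of the 9 genes were higher in prefrontal cortex, and 20.2% of all genes tested were called higher. Ppp1r1b was higher by 2.09 ± 0.36 (log2 fold change ± SE, edgeR quasi-likelihood test, adjusted p = 5.6e-06), Drd1 by 1.82 ± 0.33 (adjusted p = 1.6e-05), Gpr6 by 1.55 ± 0.48 (adjusted p = 0.0086) and Penk by 1.24 ± 0.42 (adjusted p = 0.017). The values of the other 5 were 1.29 for Adora2a, 1.12 for Drd2, 0.56 for Rgs9, 0.12 for Tac1 and -0.09 for Pdyn. Drd1 alone had no overlap between the 8 prefrontal and 8 hippocampal libraries at P5, and 5.47% of all genes were higher without overlap.

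These P5 calls rest in part on the replicate 1 libraries. Without both of them, a setting chosen after the data were seen, Drd1 (1.52, adjusted p = 0.00034) and Ppp1r1b (1.33, adjusted p = 0.00067) were still higher in prefrontal cortex. Penk (-0.11) and Gpr6 (0.45) then missed the threshold, and Pdyn was lower by 0.80 (-0.80, adjusted p = 0.0053). Leaving out either of the libraries alone left 2 genes called. Penk also missed the threshold with an animal block (0.64) and in a fit of only the samples compared (1.19).

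In the older mice 9 of 9 genes were higher in prefrontal cortex. At 6W the log2 differences ran from 1.51 ± 0.26 (Pdyn) to 3.68 ± 0.64 (Adora2a), with 2.69 ± 0.34 for Drd1, 2.70 ± 0.41 for Penk and 2.51 ± 0.37 for Tac1. Gpr6 was at 3.12 ± 0.53, Drd2 at 2.27 ± 0.63, Ppp1r1b at 2.11 ± 0.34 and Rgs9 at 2.03 ± 0.33. Their largest adjusted p was 0.0031 (Drd2), and 20.4% of all genes were called higher. At 6M they ran from 1.34 ± 0.27 (Pdyn) to 3.22 ± 0.67 (Adora2a), with 16.2% of all genes called higher. Drd1 was at 2.45 ± 0.34, Tac1 at 2.30 ± 0.37, Gpr6 at 2.09 ± 0.51, Penk at 2.05 ± 0.41, Rgs9 at 1.65 ± 0.34 and Ppp1r1b at 1.44 ± 0.34. Drd2 was the weakest call at 6M (1.82 ± 0.63, adjusted p = 0.022). It held in 20 of 23 alternative settings, and was lost with an animal block and in 2 fits that left out 1 library.

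Libraries of the tissues did not overlap for Drd1, Ppp1r1b, Penk, Tac1 and Pdyn at 6W, which makes 5 of 9 genes against 8.2% of all genes. At 6M they did not overlap for these and Adora2a, 6 of 9 against 6.68%. Drd2, Rgs9 and Gpr6 overlapped between the tissues at each age. At 6M Drd2 had 1.05, 6.95 and 31.1 CPM as the lowest, median and highest prefrontal value and 2.90, 3.23 and 3.57 CPM in hippocampus.

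**Figure D5:**
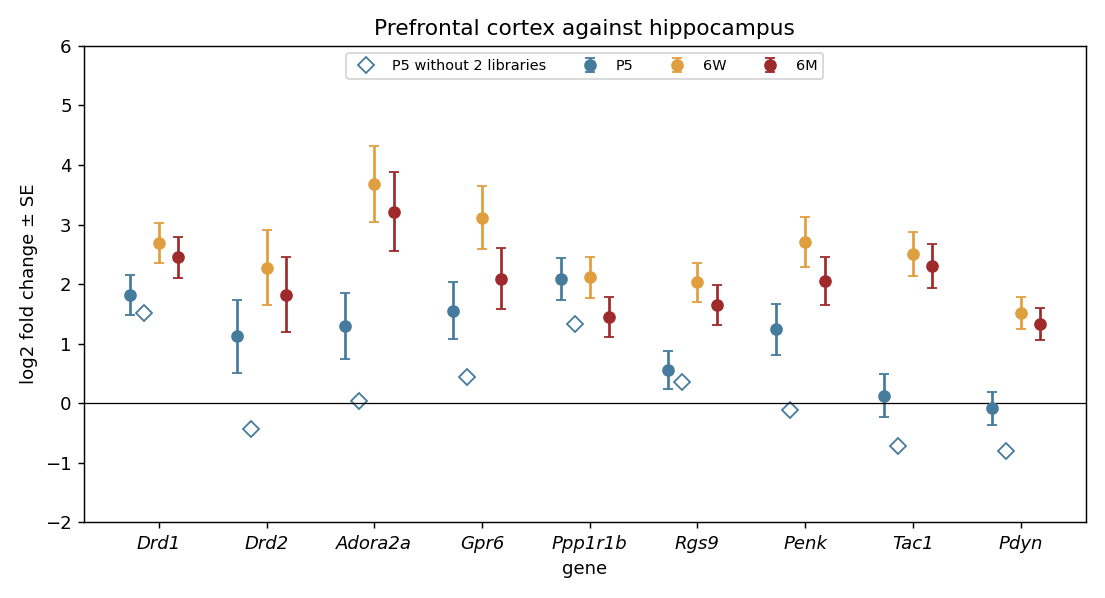
Log2 fold change (± SE) of prefrontal cortex over hippocampus for each of the 9 genes at P5, 6W and 6M, over 8 libraries per tissue and age, with open diamonds for P5 without the replicate 1 prefrontal libraries. Points at 6W and 6M are all above 1.3, and at P5 they spread from -0.09 to 2.09.

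The list of other striatal genes was chosen with earlier results of these data known. In prefrontal cortex it had 10 of 24 higher and 1 lower (Rasd2, -0.68) at P5, where 20.2% of all genes were called higher. It had 20 higher and 1 lower (Bcl11b, -0.79) at 6W, against 20.4% of all genes higher. At 6M it had 18 higher and 1 lower (Bcl11b, -0.75), against 16.2% higher. Rasd2 and Bcl11b were named here after their values were seen. The median log2 difference of the list was 0.66, 1.38 and 0.87 at the 3 ages, against 1.24, 2.51 and 2.05 for the 9 genes. Isl1, a factor of direct pathway and cholinergic neurons, reached 16.0 CPM in prefrontal cortex at P5 with a median of 0.15 CPM. At another age, 6M, Isl1 was at 0 in 4 of 8 hippocampal libraries, so these values do not compare the tissues.

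Between P5 and 6W, 4 of the 9 genes rose in prefrontal cortex, and 35.6% of all genes did. These were the peptide precursors and Ppp1r1b: Penk by 2.96 ± 0.54 (adjusted p = 3.0e-05), Tac1 by 2.45 ± 0.48 (adjusted p = 6.9e-05), Pdyn by 2.05 ± 0.35 (adjusted p = 9.2e-06) and Ppp1r1b by 1.40 ± 0.42 (adjusted p = 0.0042). The receptors did not pass, with 0.82 ± 0.40 for Drd1, 0.85 ± 0.76 for Drd2, 0.78 ± 0.68 for Adora2a and 0.90 ± 0.55 for Gpr6, and neither did Rgs9 (0.38 ± 0.40). Without both replicate 1 libraries at P5, the setting chosen after the data were seen, 8 of the 9 were called higher at 6W, all but Rgs9. Penk reached 4.30 there. Without KO replicate 1 alone 8 were called, and without WT replicate 1 alone 6. The share of all genes called in each of these fits is not given here.

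At the same step in hippocampus 3 of the 9 genes rose and 3 fell, near the shares of all genes. Penk (1.50 ± 0.13), Ppp1r1b (1.38 ± 0.17) and Pdyn (0.46 ± 0.10) rose, and 36.8% of all genes did. Adora2a (-1.60 ± 0.17), Rgs9 (-1.09 ± 0.10) and Gpr6 (-0.64 ± 0.28) fell, and 35.9% of all genes did. Adora2a had 1.69 to 3.15 CPM in the 8 hippocampal libraries at P5 and 0.605 to 1.24 CPM at 6W. Rgs9 had 11.5 to 15.4 CPM at P5 and 5.40 to 7.51 CPM at 6W. The call of Gpr6 was weak (adjusted p = 0.043) and held in 12 of 22 alternative settings, with an adjusted p of up to 0.086 by edgeR. Drd1 (-0.05 ± 0.13), Drd2 (-0.29 ± 0.14) and Tac1 (0.08 ± 0.10) did not pass.

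Whether this step differed between the tissues was tested in the fit of all 48 libraries. For 4 of the 9 genes it was greater in prefrontal cortex, and 10.8% of all genes were called in that direction. The difference was 2.38 ± 0.51 for Tac1 (adjusted p = 0.00039), 1.60 ± 0.38 for Pdyn (adjusted p = 0.0013), 1.47 ± 0.45 for Rgs9 (adjusted p = 0.015) and 2.39 ± 0.85 for Adora2a (adjusted p = 0.037). Tac1 and Pdyn were called in all 39 alternative settings and Rgs9 in 38, but Adora2a in 22, with an adjusted p of up to 0.092 by edgeR. Adora2a was lost with a robust spread, with a replicate block and in 15 of the fits that left out 1 library. Penk (1.47 ± 0.58, adjusted p = 0.065) missed the threshold, but was called in 8 of 39 alternative settings, among them an animal block. Gpr6 (1.56 ± 0.72), Drd2 (1.15 ± 0.87), Drd1 (0.87 ± 0.47) and Ppp1r1b (0.03 ± 0.49) also missed it. These were called in 4, 1, 1 and 0 of the alternative settings. Without both replicate 1 libraries at P5, 7 genes were called, and without KO 6W replicate 3 alone, 2. The share of all genes called in these fits is likewise not given.

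Between 6W and 6M none of the 9 genes was called in either tissue by edgeR or by DESeq2. Of all genes, 1.15% were called in hippocampus and 0.678% in prefrontal cortex. At an unadjusted p under 0.05 the count was 0 of 9 in each tissue, where 11.3% of all genes lay below it in hippocampus and 12.5% in prefrontal cortex. Log2 changes ran from -0.29 to 0.32 in hippocampus and from -0.75 to -0.13 in prefrontal cortex, where SEs reached 0.76. In hippocampus they were -0.17 for Drd1, -0.02 for Drd2, -0.29 for Adora2a, 0.32 for Gpr6, 0.13 for Ppp1r1b, -0.09 for Rgs9, 0.15 for Penk, 0.06 for Tac1 and -0.17 for Pdyn. In prefrontal cortex they were -0.40 for Drd1, -0.46 for Drd2, -0.75 for Adora2a, -0.70 for Gpr6, -0.53 for Ppp1r1b, -0.46 for Rgs9, -0.49 for Penk, -0.13 for Tac1 and -0.34 for Pdyn. The difference of this step between the tissues was called for 0 of 9 genes (0.0106% of all genes), and 0 of the 9 against 9.46% of all genes had an unadjusted p under 0.05.

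The loss of Aag was compared at each age and over the ages, and 0 of 9 genes were called in any of the 8 comparisons with edgeR or with DESeq2. In prefrontal cortex 0.0496% of all genes were called at P5, 0.0331% at 6W, 0.0331% at 6M and 0.0661% over the ages, and none of the 9 had an unadjusted p under 0.05, against 8.28, 3.38, 1.73 and 5.14% of all genes. Over the ages the KO minus WT values ran from -0.07 ± 0.33 (Drd1) to 0.21 ± 0.56 (Adora2a), with 0.15 ± 0.62 for Drd2. The others were at 0.16 for Gpr6, 0.17 for Ppp1r1b, -0.05 for Rgs9, 0.17 for Penk, -0.07 for Tac1 and 0.02 for Pdyn. SEs of 0.27 to 0.62 leave differences of that size undetected, and the prefrontal libraries cannot show that the genotypes are alike.

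In hippocampus 0.118% of all genes were called at P5, 0.0394% at 6W, 0.045% at 6M and 0.0675% over the ages. Here the SEs over the ages were 0.08 to 0.23. At an unadjusted p under 0.05, 2 of the 9 genes stood out at P5, 2 at 6W, 0 at 6M and 2 over the ages. The share of all tested genes below that threshold was 7.83, 4.32, 3.24 and 5.84%, in the same order. At P5 these were Tac1 (-0.49 ± 0.14, adjusted p = 0.27) and Ppp1r1b (-0.85 ± 0.25, adjusted p = 0.29). Tac1 was at 21.9, 21.4, 21.4 and 27.0 CPM in WT and at 17.9, 13.3, 15.4 and 18.7 CPM in KO. Ppp1r1b was at 14.8, 8.75, 6.12 and 5.73 CPM in WT and at 3.33, 6.73, 6.62 and 2.91 CPM in KO, with overlap. Without the filter on low counts both were called lower in KO, but in no other of the 14 alternative settings. Choroid plexus genes (4 genes) differed between the same libraries, with sums of 7490, 7459, 1967 and 3827 CPM in WT and 22.7, 1908, 1868 and 12.4 CPM in KO. Their part in the differences of Tac1 and Ppp1r1b was not tested. Drd1 was at -0.35 ± 0.10 over the ages (adjusted p = 0.52), with -0.05 for Drd2, -0.12 for Adora2a, 0.24 for Gpr6, -0.26 for Ppp1r1b, 0.04 for Rgs9, -0.20 for Penk, -0.21 for Tac1 and -0.06 for Pdyn. The 2 genes at 6W went opposite ways. Gpr6 was at 0.242 to 0.377 CPM in WT and 0.458 to 0.977 CPM in KO (1.13 ± 0.43, adjusted p = 1.0), on 5 to 21 counts a library. Drd1 was at 4.61 to 7.10 CPM in WT and 3.69 to 4.205 CPM in KO (-0.47 ± 0.18, unadjusted p = 0.014 by edgeR), and was not called. By edgeR's test, a difference between tissues in the genotype effect was called for 0 of the 9 genes (0% of all genes called). At an unadjusted p under 0.05 the count was 0 of the 9 against 3.25% of all genes. With SEs of 0.31 (Pdyn) to 0.73 (Adora2a), this does not show that the genotype effect is alike in the tissues.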

How the data were processed

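The authors deposited a table of raw read counts per Ensembl gene for 48 libraries, without normalization. Per the labels, reads were single-end, 75 bases long and from stranded poly(A) libraries. The submitters' processing notes name bcl2fastq 2.20.0.422, STAR 2.4.0, HTSeq and GRCm38. The annotation release, strand use and treatment of multiply mapped reads are not given in the sources used here. Columns were matched to samples by title, and 54723 of 54838 IDs received a symbol.

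The count test was the quasi-likelihood F-test of edgeR 4.0.16 under R 4.3.3 (glmQLFit, glmQLFTest, TMM scaling, filterByExpr). Each tissue had a fit of 24 libraries and 6 groups (17786 genes in hippocampus, 18144 in prefrontal cortex), and contrasts between tissues came from a fit of 48 libraries and 12 groups (18849 genes). P-values were adjusted by Benjamini-Hochberg over all tested genes, and a gene was called at an adjusted p under 0.05. CPM used the effective library sizes of the 48-library fit, so CPM of all samples shares a scale. RPKM divided CPM by GENCODE M21 exonic length. All 9 genes passed the filter in each fit. Deviations used log2 CPM with a prior count of 1, and genes were ranked for likeness at a mean log2 CPM of at least 2.

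The rule was to name all 9 genes in every comparison, but genotype comparisons within an age and differences between tissues of the 6W to 6M step and of genotype give counts or only some of them. The rule took other striatal genes only among the 6 largest called changes of a comparison, and the genes most alike by their rank; single results that these rules would name are in part not reported here. The 9 genes and all gene lists were chosen with earlier results of these data known. The code was tested on simulated counts. Alternatives were DESeq2 1.42.0, its size factors within edgeR, no filter on low counts, a robust spread, replicate or animal blocks, a fit of only the samples compared, and leaving out each library in turn (96 fits).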

Additional observations from a re-analysis of the deposited data

Results flagged for a closer look

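In 13 of 108 sets of 4 libraries (9 genes in 12 groups) a library stood farther from the others than Dixon's criterion allows at 95%, where chance alone gives about 5.4. Of these 13, 10 were in the replicate 1 prefrontal libraries at P5. In WT they were Drd2 at 22.05 CPM, Adora2a at 13.5 CPM, Ppp1r1b at 58.6 CPM, Penk at 44.1 CPM, Tac1 at 57.7 CPM and Gpr6 at 5.00 CPM. In KO they were Drd2 at 29.4 CPM, Adora2a at 21.0 CPM, Penk at 41.9 CPM and Gpr6 at 5.43 CPM. The other 3 were in hippocampus: Drd2 in WT 6W replicate 4 (4.70 CPM, high), Ppp1r1b in KO 6M replicate 4 (15.8 CPM, low) and Tac1 in WT P5 replicate 4 (27.0 CPM, high).

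The step from P5 to 6W differed between the tissues for 4 genes, by edgeR's test of the difference itself (prefrontal minus hippocampus, log2). The difference was 2.39 for Adora2a, 1.47 for Rgs9, 2.38 for Tac1 and 1.60 for Pdyn. The call of Adora2a held in 22 of 39 alternative settings, that of Rgs9 in 38 and those of Tac1 and Pdyn in 39.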

How the results depend on the processing

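Of 151 counts of called genes under another setting, 143 stayed within 1.5 times the reported count, and 8 did not. Without the filter on low counts, 7 genes were called between tissues at P5 (4 reported), 2 for KO minus WT in hippocampus at P5 (0 reported) and 7 for the tissue difference of the P5 to 6W step (4 reported). Without the replicate 1 prefrontal libraries at P5, 8 genes were called for that step in prefrontal cortex and 7 for its tissue difference. Leaving out each library in turn gave 2 to 5 calls between tissues at P5, 4 to 8 for the prefrontal step and 2 to 6 for its tissue difference. The 9 of 9 calls at 6W held in every setting, and at 6M Drd2 alone was lost in some (1.09 with an animal block, as low as 1.24 without a library). The shares of all genes called under these settings are not given here, and the cause of these shifts was not tested.

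Over the tissue comparisons, the age steps, the tissue difference of the P5 to 6W step, genotype over the ages and the genes named for genotype in hippocampus at P5 and 6W, signs turned in 25 cases, counting each range over left-out libraries once. Outside that count, without the replicate 1 libraries, 6 of 9 signs turned for KO minus WT in prefrontal cortex at P5 and 1 of 9 (Pdyn, -0.014) for the tissue difference of genotype. Between tissues at P5, without the replicate 1 libraries, Drd2 was -0.44, Penk -0.11 and Tac1 -0.72. With an animal block Tac1 was -0.21 there. Leaving out each library in turn, Tac1 ran from -0.35 to 0.25 and Pdyn from -0.51 to 0.055 in that comparison. For KO minus WT in prefrontal cortex over the ages, the setting without the same 2 P5 libraries gave Drd2 -0.011, Tac1 0.0045 and Pdyn -0.076. Leaving out each library there gave ranges of -0.25 to 0.074 for Drd1, -0.45 to 0.59 for Drd2, -0.29 to 0.55 for Adora2a, -0.055 to 0.45 for Ppp1r1b, -0.26 to 0.12 for Rgs9, -0.22 to 0.68 for Penk, -0.31 to 0.25 for Tac1, -0.27 to 0.21 for Pdyn and -0.26 to 0.49 for Gpr6. In hippocampus over the ages the ranges were -0.12 to 0.024 for Drd2 and -0.031 to 0.075 for Rgs9. Between 6W and 6M they were -0.091 to 0.090 for Drd2 in hippocampus and -0.35 to 0.22 for Tac1 in prefrontal cortex. For the tissue difference of the P5 to 6W step Ppp1r1b was -0.028 with an animal block and ran from -0.27 to 0.44 over left-out libraries.

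Same-numbered libraries deviated together (every correlation over 0.1) in 1 of 6 genotype pairs of groups, 1 of 12 age pairs and 0 of 6 tissue pairs, so the numbers were not taken as a pairing. By summed level of the 9 genes, however, prefrontal replicate 1 was highest in WT and KO at P5. It was lowest in WT and KO at 6W and at 6M, and this pattern was not tested. With the number as a replicate block the counts were 4, 9 and 9 between tissues, 0 in each genotype comparison, 6 and 4 for the P5 to 6W step and 3 for its tissue difference (Adora2a missed). The block turned Pdyn in the prefrontal genotype comparison to -0.036.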
